A study of Homo sapiens with 6 samples.

Results

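Transcripts of 10 genes were followed in PC3 cells after Mic60 silencing: the PARP family genes PARP1, PARP2, PARP4, PARP8, PARP9, PARP10, PARP12, PARP14 and TIPARP, and DTX3L, whose protein works as the partner of PARP9. The genes were chosen by name and sorted by their known roles, with earlier results of these data at hand. The sorting was therefore not independent of the data, and the contrast between the classes is a description. It gave 5 interferon-linked genes (PARP9, DTX3L, PARP14, PARP10 and PARP12), 4 housekeeping genes (PARP1, PARP2, PARP4 and PARP8) and TIPARP on its own. TIPARP, a target of the aryl hydrocarbon receptor that interferon can also induce, was set apart from both classes. All 10 were found in the count table of 57736 Ensembl genes. A gene was tested where 3 or more of the 6 libraries held 10 counts or more, which 14653 genes and all 10 members did. PC3 is a line of human prostate cancer cells that was derived from a metastasis to bone. In the study, 3 libraries came from PC3 cells that received an siRNA against Mic60 (siMic60) and 3 from PC3 cells that received a control siRNA (siCTRL), with no other agent, allele or time point in the labels. The labels give the same groups as Mic60 KO and Mic60 WT in a further field, and the siRNA names are used here. The study's supplement describes its data in general as coming from independent biological replicates. It does not say how the replicates of these libraries were cultured, so part of the spread that the p-values rest on may be technical.

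PARP enzymes take ADP-ribose from NAD and attach it to proteins, either as a chain or as a single unit. PARP1 and PARP2 are nuclear sensors of DNA breaks that build chains. Most other members attach single units, and a group of these, together with PARP9 and DTX3L, is transcribed in many cell types when interferon activates ISGF3, a transcription factor complex that contains STAT2 and IRF9. PARP9 and DTX3L form a heterodimer in which DTX3L, a Deltex-type E3 ubiquitin ligase, carries the ubiquitin-transferring part. PARP14 carries macrodomains that bind ADP-ribose, as does PARP9. Mic60, encoded by IMMT, is a core subunit of the MICOS complex of the inner mitochondrial membrane.

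The libraries were 3′ mRNA libraries, in which each polyadenylated transcript is read near its 3′ end, so that counts do not scale with transcript length and were compared between genes with no length correction. Total counts were 6644495 to 8779877 in siMic60 libraries and 7714837 to 8396244 in siCTRL libraries. Levels are CPM, the counts of a gene scaled to the size of its library by TMM. Genes with an adjusted p under 0.05 were called, and fold changes are siMic60 over siCTRL. IMMT had 5.83, 7.34 and 8.53 CPM in siMic60 libraries, against 88.9, 91.2 and 90.4 CPM in siCTRL libraries, and followed the labels in all 6. Of the tested genes, 17.7% were called higher and 17.9% lower, and their median log2 fold change was 0.0022. Epithelial KRT8, KRT18, KRT19, EPCAM and CDH1 were present in every library, and KLK3, a prostate gene that PC3 is known to lack, had no count. The epithelial markers were not level between the groups. KRT8 was called higher (log2 fold change 0.62), KRT18 (-0.53), KRT19 (-0.94) and EPCAM (-0.75) were called lower, and CDH1 (-0.25) was not called. Of 12 leukocyte markers, 7 had no count in any library, among them CD3E and MS4A1, while CD68, which epithelial cells can also transcribe, was the one tested marker and was called higher. The summed leukocyte list stood at 25.5 to 27.7 CPM in siMic60 libraries and 8.38 to 9.95 CPM in siCTRL libraries, most of it CD68 in each. In bulk RNA, a change in the share of cells that transcribe a gene and a change in RNA per cell cannot be told apart.

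Start regions of PARP9, DTX3L, PARP14 and PARP12 are shown here because they hold the core of an interferon-stimulated response element (ISRE) close to their starts. The ISRE is the site that ISGF3 and other interferon regulatory factors bind. PARP10 had no window on hand and is not shown. The ISRE core was searched as GAAANNGAAA, or TTTCNNTTTC on the other strand, in RefSeq windows of GRCh38.p14 that reach 250 bases before and 50 bases after each start. PARP9 and DTX3L lie head to head, with 37 bases between their starts in these windows. The stretch from the base next to the PARP9 start to the first 4 bases of DTX3L (chr3:122564301-122564341, plus strand) ends in a core, in capitals, that lies in the window of DTX3L and in 1 of the 2 windows of PARP9. The 100 bases before PARP14 (chr3:122680739-122680838, plus strand) hold a core from -29 to -20, and before it the letters TTCNNNGAA of a gamma-activated site (GAS), an element known from genes that interferon gamma induces, both in capitals. The 100 bases before PARP12 (chr7:140062952-140063051, minus strand) end in a core, in capitals.
PARP9-DTX3L: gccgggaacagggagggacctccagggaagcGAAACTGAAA
PARP14: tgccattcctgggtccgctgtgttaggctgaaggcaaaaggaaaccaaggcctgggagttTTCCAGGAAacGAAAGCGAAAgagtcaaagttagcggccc
PARP12: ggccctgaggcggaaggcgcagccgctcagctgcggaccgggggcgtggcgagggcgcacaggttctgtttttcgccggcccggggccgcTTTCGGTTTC
For contrast, the 100 bases before PARP1 (chr1:226408094-226408193, minus strand) and before PARP2 (chr14:20343535-20343634, plus strand) hold neither the ISRE core nor the GAS letters and are all in lower case. Farther out, the PARP2 window holds the GAS letters from -154 to -146.
PARP1: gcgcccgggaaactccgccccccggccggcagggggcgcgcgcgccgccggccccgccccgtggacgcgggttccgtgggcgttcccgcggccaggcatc
PARP2: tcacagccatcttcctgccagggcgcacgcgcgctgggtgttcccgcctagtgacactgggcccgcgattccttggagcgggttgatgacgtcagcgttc

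Windows were on hand for 8 of the 10 genes, with PARP10 and PARP4 not among them. The ISRE core was in a window of 4 of 4 interferon-linked genes, of which PARP9 and DTX3L share the same letters, in 0 of 3 housekeeping genes and not in that of TIPARP. It was also in no window of the 7 other PARP family genes that had one. Among all 35116 windows of the table, 3.57% held the core, and 7.66% held the GAS letters. Of the 2017 genes called higher that had a window, 140 held the core (6.94%), against 45 of 1945 genes called lower (2.31%) and 229 of 6658 genes not called (3.44%). Of all 10620 tested genes with a window, 414 held the core (3.9%). Among the 138 genes with a window that were called higher by at least the fold of DTX3L, 49 held it (35.5%). That cut-off is the fold of a member, and the 138 include the 4 interferon-linked genes with a window, so this share is not independent of them. TIPARP, which the aryl hydrocarbon receptor induces, had the letters GCGTG of the receptor's response element at -208 and -142 in 1 of its 3 windows, letters that 36.5% of all windows held on either strand. Windows of PARP12, PARP1, PARP2, PARP8 and several other PARP family genes held these letters as well. A match describes the letters of a window and is not a measured site.

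All 5 interferon-linked genes rose after Mic60 silencing. None of the other 5 passed the test, among them TIPARP, which interferon can also induce. Each of the 5 interferon-linked genes was also over 2-fold higher with no overlap between the groups. As background, 17.7% of tested genes were called higher, 5.60% were called higher by over 2-fold, and 23.7% had all siMic60 libraries above all siCTRL libraries (24.1% had them all below, as no member did). The interferon-linked genes had log2 fold changes of 1.86 to 2.78 with a median of 2.44, and the housekeeping genes of -0.24 to 0.56 with a median of 0.36. The housekeeping class is a label by role and includes PARP8, which was near the counting minimum. With a minimum of 50 counts, which leaves PARP8 out, the median of the class was 0.21. Of all tested genes, 218 (1.49%) had a log2 fold change as high as that of DTX3L, the lowest of the interferon-linked genes.

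**Figure D1:**
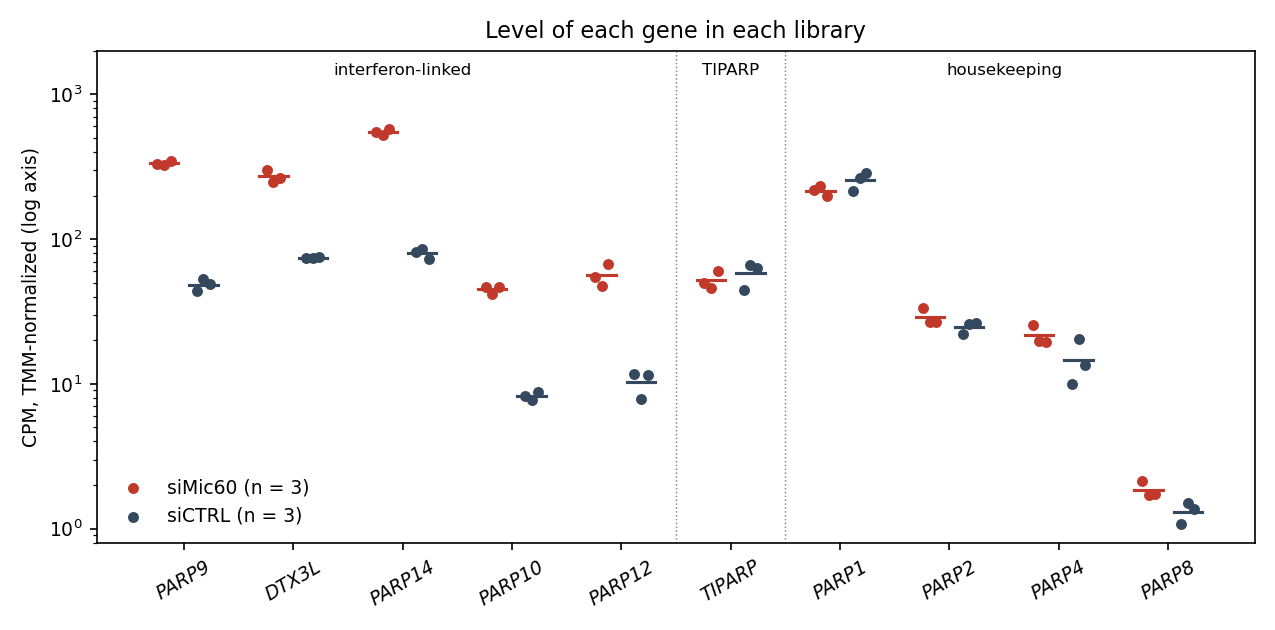
CPM (log axis) of the 10 genes in each library, with siMic60 points left of siCTRL points for each gene. PARP9, DTX3L, PARP14, PARP10 and PARP12 have all 3 siMic60 points above all 3 siCTRL points by several fold, PARP8 (1.71 to 2.15 CPM against 1.08 to 1.501 CPM) and PARP2 (26.7 to 33.4 CPM against 22.1 to 26.1 CPM) are apart by a small margin, and TIPARP, PARP1 and PARP4 overlap.

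PARP9 is a catalytically limited member that reads ADP-ribose through its macrodomains and depends on DTX3L for activity in the heterodimer. PARP9 (ENSG00000138496) stood at 329, 327 and 345 CPM in siMic60 libraries, against 43.9, 52.9 and 48.8 CPM in siCTRL libraries. The groups were far apart, and the spread within each was small (SD 10.2 CPM in siMic60 libraries and 4.53 CPM in siCTRL libraries). The log2 fold change was 2.78 ± 0.12 (SE), or 6.88-fold (95% interval 5.74 to 8.24), with an adjusted p of 5.08e-10 in edgeR's quasi-likelihood test. DTX3L (ENSG00000163840), the E3 ligase of the pair, stood at 301, 246 and 265 CPM in siMic60 libraries, against 74.2, 74.5 and 75.1 CPM in siCTRL libraries. All siMic60 libraries were above the siCTRL libraries, which were nearly level. DTX3L rose by a log2 fold change of 1.86 ± 0.12 (SE), or 3.63-fold (95% interval 3.04 to 4.33), with an adjusted p of 2.37e-08.

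The PARP9 transcript moved past that of its partner. PARP9 counts were 1.09, 1.33 and 1.30 times DTX3L counts in siMic60 libraries, against 0.591, 0.710 and 0.650 times in siCTRL libraries. DTX3L was the more abundant of the pair in every siCTRL library and PARP9 in every siMic60 library. The difference of the mean log2 ratios was 0.93 (p = 0.1, exact two-sided permutation test over 3 against 3 libraries, where 0.1 is the smallest p possible). As background, 48.2% of all pairs of tested genes had ratios that did not overlap between the groups, and 27.4% did so with a difference at least as large as this one. In GENCODE 29, where the outermost starts of both genes differ from the RefSeq starts used above, PARP9 and DTX3L overlap by 340 bases at their 5′ ends on opposite strands, away from the 3′ ends that these libraries read.

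PARP14, a large cytoplasmic and nuclear enzyme that attaches single ADP-ribose units and is known as a cofactor in STAT signalling, was the most abundant of the 10 transcripts in every siMic60 library. PARP14 (ENSG00000173193) stood at 551, 527 and 577 CPM in siMic60 libraries, against 81.9, 85.8 and 72.7 CPM in siCTRL libraries. All siMic60 libraries were above all siCTRL libraries. The log2 fold change was 2.78 ± 0.12 (SE), or 6.89-fold (95% interval 5.78 to 8.21), with an adjusted p of 4.29e-10 in edgeR's quasi-likelihood test. PARP14 kept step with PARP9: PARP9 counts were 0.596, 0.620 and 0.598 times PARP14 counts in siMic60 libraries, against 0.536, 0.617 and 0.671 times in siCTRL libraries, ranges that overlap. The mean log2 ratios of PARP9 to PARP14 differed by -0.0013, with differences between single libraries of -0.17 to 0.21. DTX3L did not keep step with PARP14, at 0.545, 0.467 and 0.459 times PARP14 counts in siMic60 libraries, against 0.906, 0.869 and 1.03 times in siCTRL libraries, a difference of -0.93 in the mean log2 ratio (p = 0.1, exact two-sided permutation test, the smallest possible).

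**Figure D2:**
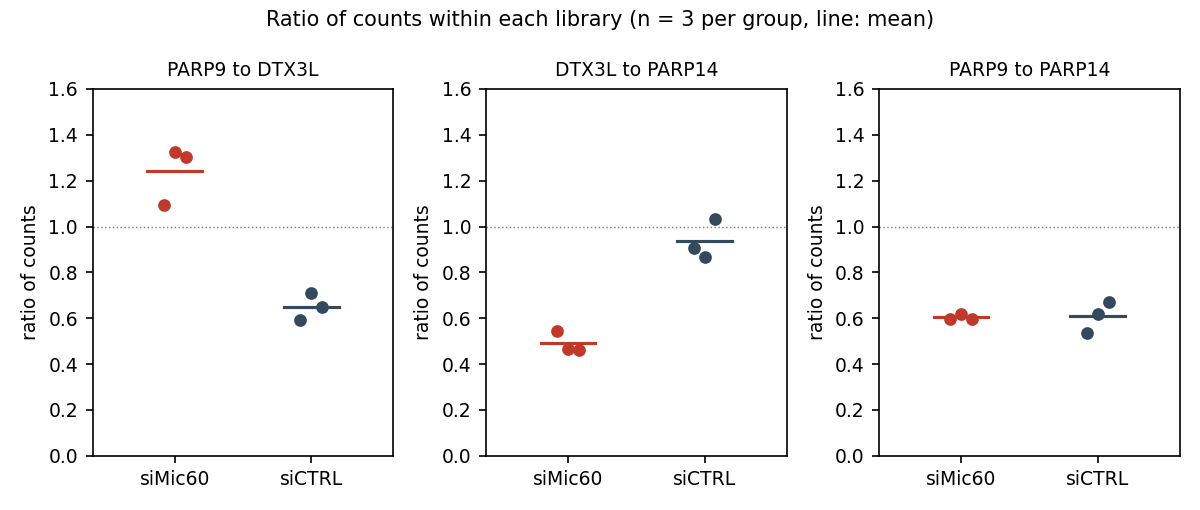
Ratio of counts within each library (linear axis) for pairs among PARP9, DTX3L and PARP14, with each siMic60 library on the left of each panel and each siCTRL library on the right. PARP9 to DTX3L lies at 1.09 to 1.33 in siMic60 libraries and 0.591 to 0.710 in siCTRL libraries, while PARP9 to PARP14 overlaps between the groups.

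PARP10 and PARP12, which attach single ADP-ribose units, rose by nearly equal folds from lower levels. PARP10 (ENSG00000178685), whose overexpression is known to slow cell growth, stood at 46.9, 41.6 and 46.5 CPM in siMic60 libraries, against 8.27, 7.75 and 8.75 CPM in siCTRL libraries. PARP12 (ENSG00000059378), a zinc-finger member with known antiviral action at the Golgi and in stress granules, stood at 54.7, 47.5 and 67.2 CPM in siMic60 libraries, against 11.6, 7.88 and 11.6 CPM in siCTRL libraries. In both genes the lowest siMic60 library was above the highest siCTRL library. PARP10 had a log2 fold change of 2.44 ± 0.15 (SE; adjusted p = 1.51e-08) and PARP12 of 2.44 ± 0.18 (SE; adjusted p = 1.26e-07), both in edgeR's quasi-likelihood test. The GRINA gene overlaps PARP10 by 3358 bases on the opposite strand, outside the 3′ end of PARP10, and whether the counting used strand is not stated. GRINA had 3131, 2979 and 3455 counts in siMic60 libraries, against 2859, 2420 and 2920 counts in siCTRL libraries, and was not called (log2 fold change 0.31 ± 0.12 SE, adjusted p = 0.0701).

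Among the 5 interferon-linked genes, 10 pairs were compared within libraries and 6 had ratios that did not overlap between the groups, beside 48.2% of all pairs of tested genes. All 4 pairs with DTX3L were among the 6, and in each of them DTX3L had the smaller increase. PARP10 to PARP12 stood at 0.857, 0.876 and 0.691 in siMic60 libraries, against 0.711, 0.984 and 0.755 in siCTRL libraries, and overlapped. Ratios of each interferon-linked gene to each housekeeping gene gave 20 pairs, with differences of the mean log2 ratios of 1.24 to 3.02. None of the 20 overlapped between the groups, where 48.2% of all pairs of tested genes did not overlap. These ratios restate the fold changes of the single genes, and the pairs share genes and libraries, so they are not separate evidence. Each of the 20 reached p = 0.1, the smallest that an exact permutation test of 3 against 3 libraries allows, before any adjustment.

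TIPARP (PARP7), which attaches single ADP-ribose units and is known as a target and a repressor of the aryl hydrocarbon receptor, is also known as a brake on type I interferon signalling. TIPARP (ENSG00000163659) stood at 49.98, 45.6 and 59.95 CPM in siMic60 libraries, against 44.6, 66.4 and 63.6 CPM in siCTRL libraries. The groups overlapped, and the log2 fold change of -0.16 ± 0.16 (SE) did not pass edgeR's quasi-likelihood test (adjusted p = 0.454, 95% interval -0.50 to 0.17). The interval holds no increase near those of the interferon-linked genes. Of 9 genes of the aryl hydrocarbon receptor pathway, 7 were tested, 2 were called higher and 0 lower, with a median log2 fold change of -0.04. Among all tested genes, 17.7% were called higher and 17.9% lower. CYP1B1, a cytochrome P450 that the receptor induces, rose to 88.3, 81.3 and 74.1 CPM in siMic60 libraries, against 20.02, 31.6 and 28.5 CPM in siCTRL libraries. NQO1, a quinone reductase, rose by a log2 fold change of 0.47 ± 0.12 (SE). CYP1A1, the most used reporter of the receptor, was at 0.490 to 1.53 CPM in siMic60 libraries and 0.247 to 1.25 CPM in siCTRL libraries, too low for testing.

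None of the 4 housekeeping members was called in edgeR's quasi-likelihood test, where 35.5% of all tested genes were. PARP1 (ENSG00000143799) stood at 219, 231 and 199 CPM in siMic60 libraries, against 215, 266 and 288 CPM in siCTRL libraries. The siCTRL library 1 was within the siMic60 range, and the log2 fold change was -0.24 ± 0.13 (SE; adjusted p = 0.154). Without siCTRL library 1 it was -0.36, which was called lower with an adjusted p of 0.0228. PARP2 (ENSG00000129484), the closest relative of PARP1, stood at 33.4, 26.9 and 26.7 CPM in siMic60 libraries, against 22.1, 25.9 and 26.1 CPM in siCTRL libraries. The groups of PARP2 did not overlap, as in 47.9% of all tested genes, and were less than 1 CPM apart at the nearest, with a log2 fold change of 0.23 ± 0.15 (SE; adjusted p = 0.252).

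PARP4, the PARP of the vault particle, was nearest to the threshold of the housekeeping genes. PARP4 (ENSG00000102699) stood at 25.5, 19.7 and 19.6 CPM in siMic60 libraries, against 9.95, 20.4 and 13.4 CPM in siCTRL libraries. The siCTRL library 2 lay within the siMic60 range, and the log2 fold change was 0.56 ± 0.23 (SE; 95% interval 0.08 to 1.04), which did not pass after adjustment over all genes (adjusted p = 0.0654). Without that library it was 0.87 and called higher (adjusted p = 0.00786). The pseudogene TPTE2P6 covers the 3′ end of PARP4 on the opposite strand and held 6 counts in all 6 libraries together. PARP8 (ENSG00000151883), a less studied member that attaches single units, was near the counting minimum, with 14, 14 and 15 counts in siMic60 libraries, against 9, 12 and 11 counts in siCTRL libraries. The groups did not overlap, but the log2 fold change of 0.49 ± 0.41 (SE; adjusted p = 0.377) had a 95% interval of -0.38 to 1.37, so at this depth neither a decrease nor an increase was outside the interval.

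**Figure D3:**
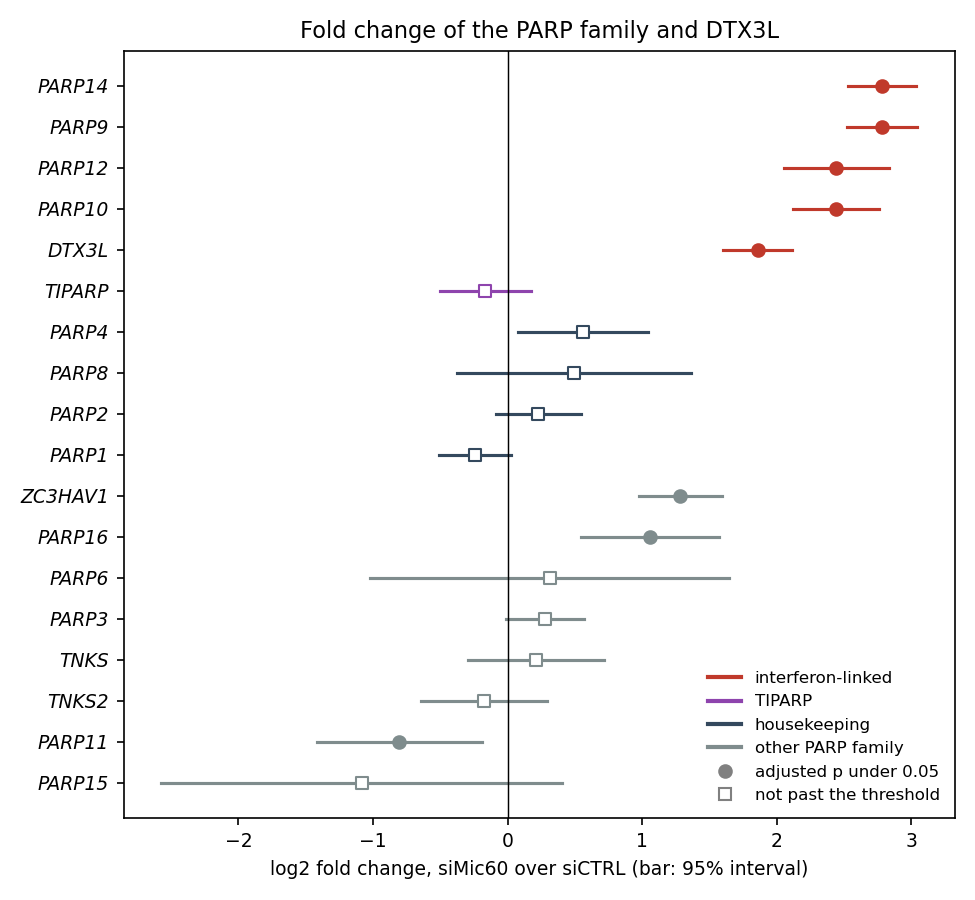
Log2 fold change, siMic60 over siCTRL, of the 10 genes and 8 further PARP family genes, with bars for the 95% interval. PARP14, PARP9, PARP10, PARP12 and DTX3L lie at 1.86 to 2.78, ZC3HAV1 at 1.28 and PARP16 at 1.06, and PARP1, PARP2, PARP8 and TIPARP have intervals that include 0.

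The remaining 8 PARP family genes were all tested, with 2 called higher, 1 lower and 5 not called, and a median log2 fold change of 0.24. For all tested genes the shares were 17.7% higher and 17.9% lower. ZC3HAV1 (PARP13), the zinc-finger antiviral protein that binds viral RNA and lacks ADP-ribosyl transferase activity, rose to 295, 260 and 197 CPM in siMic60 libraries, against 102, 111 and 96.0 CPM in siCTRL libraries. The groups were apart, and its log2 fold change of 1.28 ± 0.14 (SE; adjusted p = 8.68e-06) was below those of the 5 interferon-linked genes. PARP16, a membrane-anchored enzyme of the endoplasmic reticulum, had 10.3, 8.93 and 11.5 CPM in siMic60 libraries, against 3.72, 5.503 and 5.55 CPM in siCTRL libraries. PARP16 rose by a log2 fold change of 1.06 ± 0.24 (SE; adjusted p = 0.00322). PARP11, which attaches single units at the nuclear envelope, fell to 3.37, 4.77 and 3.00 CPM in siMic60 libraries, against 5.51, 6.13 and 7.89 CPM in siCTRL libraries. Its call (log2 fold change -0.80 ± 0.29 SE, adjusted p = 0.0407) was lost without siMic60 library 1 (adjusted p = 0.0966) or 3 (0.134), without siCTRL library 2 (0.0708) or 3 (0.156), and with DESeq2 in place of edgeR (0.0558). PARP3, a DNA-break-dependent relative of PARP1 and PARP2, had a log2 fold change of 0.28 (adjusted p = 0.127) and was called higher without siCTRL library 1 (0.38, adjusted p = 0.0399). The tankyrases, which build chains in telomere and WNT signalling, had log2 fold changes of 0.21 (TNKS) and -0.17 (TNKS2) and were not called. PARP6 (log2 fold change 0.31 ± 0.63 SE) and PARP15 (-1.09 ± 0.70 SE) were below 5 CPM in every library and were not called.

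Over the 17 PARP family genes, the summed level was 1643 ± 42.5 CPM in siMic60 libraries and 679 ± 53.6 CPM in siCTRL libraries (SD, n = 3 each). PARP14 took 33.6 ± 1.63% of the family's counts in siMic60 libraries and 11.9 ± 1.52% in siCTRL libraries (SD, n = 3 each). PARP9 took 20.3 ± 0.90% in siMic60 libraries and 7.14 ± 0.29% in siCTRL libraries. The 4 interferon-linked PARP genes together took 60.11 ± 3.13% in siMic60 libraries and 21.8 ± 1.80% in siCTRL libraries. PARP1 led the family in every siCTRL library, and its share was 13.2 ± 1.07% in siMic60 libraries and 37.6 ± 2.85% in siCTRL libraries, although its level was not called changed. ZC3HAV1 took 15.2 ± 2.77% in siMic60 libraries and 15.2 ± 1.53% in siCTRL libraries. Shares of one total move against each other by construction, and CPM gives the level of each gene.

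**Figure D4:**
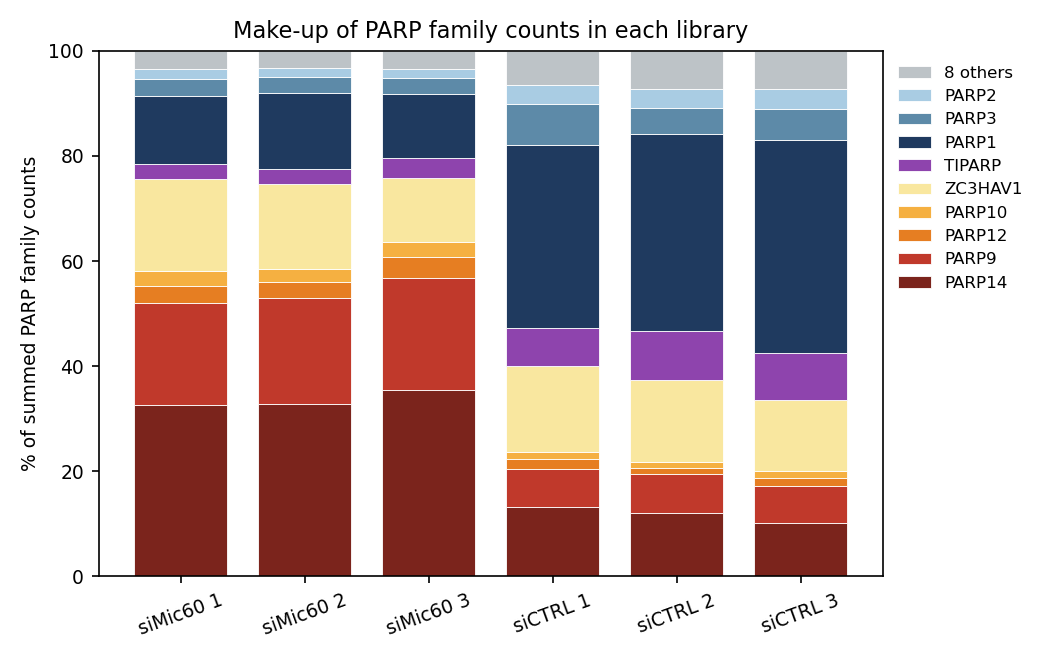
Percent of the summed counts of 17 PARP family genes taken by the leading members (stacked, 0 to 100) in each of the 6 libraries, siMic60 libraries on the left. PARP14 takes 32.6 to 35.5% in siMic60 libraries and 10.2 to 13.3% in siCTRL libraries, and PARP1 takes 12.3 to 14.4% in siMic60 libraries and 34.8 to 40.5% in siCTRL libraries.

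The order of the 10 levels was stable within the siMic60 libraries: PARP14, PARP9, DTX3L and PARP1 held places 1 to 4 in all 3, with no overlap between neighbours. Places 5 to 7 went to PARP12, TIPARP and PARP10, which lay within 41.6 to 67.2 CPM and whose neighbours overlap. In siCTRL libraries PARP1 was first in all 3, followed by PARP14 and DTX3L at 72.7 to 85.8 CPM, which exchanged places in siCTRL library 3 and overlapped. TIPARP and PARP9 came next at 43.9 to 66.4 CPM and also overlapped. PARP8 was last in all 6 libraries.

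PARP9, DTX3L, PARP15 and PARP14 lie side by side on chromosome 3 in the RefSeq gene order, and the rise was not shared by all of them. PARP15, which lies between DTX3L and PARP14 and is known mainly from lymphoid cells, had 0, 20 and 12 counts in siMic60 libraries, against 39, 6 and 25 counts in siCTRL libraries. The counts were low and scattered in both groups, and PARP15 was not called. On the PARP9 side, MIX23 rose by a log2 fold change of 0.83 ± 0.17 (SE) and FAM162A by 0.40 ± 0.12 (SE), while WDR5B (-0.36) and KPNA1 (0.31), the nearest neighbour of PARP9, were not called. FAM162A lost its call without siMic60 library 3 (0.26, adjusted p = 0.119), siCTRL library 2 (adjusted p = 0.0902) or siCTRL library 3 (adjusted p = 0.0731). On the PARP14 side, HSPBAP1 (0.55) and SLC49A4 (-0.08) were not called, SEMA5B held 1 count in all libraries together, and PDIA5, a protein disulfide isomerase, rose by 1.25 ± 0.14 (SE; adjusted p = 7.37e-06). No tested neighbour outside the cluster reached the log2 fold change of DTX3L. As background, 1.49% of all tested genes reached it and 17.7% were called higher.

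**Figure D5:**
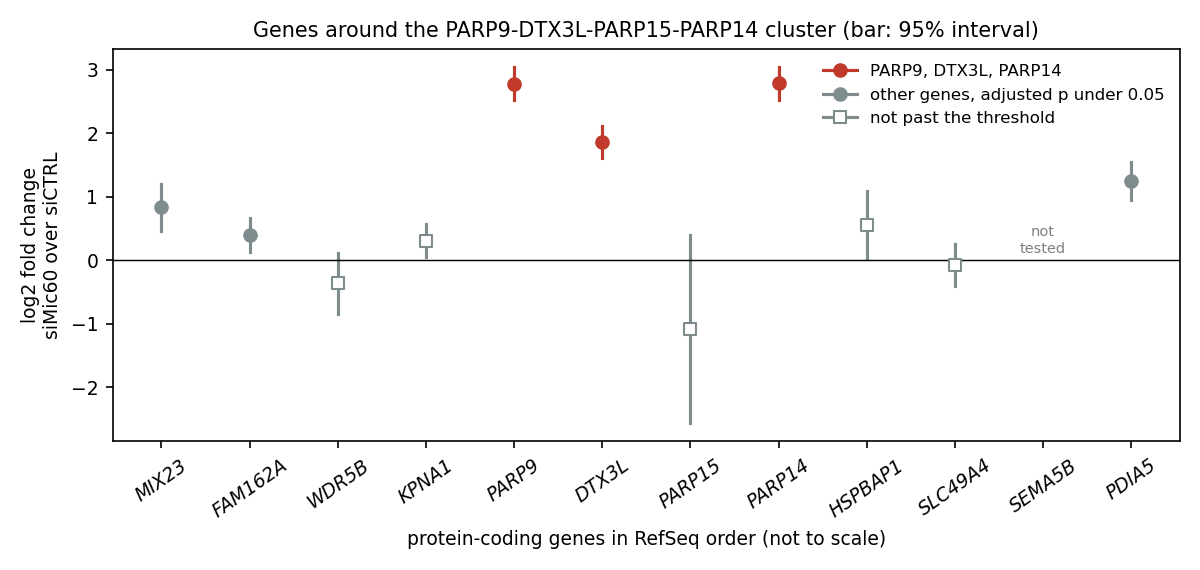
Log2 fold change, siMic60 over siCTRL, of protein-coding genes in RefSeq order around the PARP9-DTX3L-PARP15-PARP14 cluster (evenly spaced, not to scale), with bars for the 95% interval. PARP9 and PARP14 at 2.78 and DTX3L at 1.86 stand above the neighbours, the highest of which is PDIA5 at 1.25, and PARP15 between them is at -1.09 with an interval that includes 0.

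Transcription factors that bind ISRE sequences, alone or within ISGF3, were higher as well. IRF7, a driver of type I interferon genes, rose to 247, 259 and 289 CPM in siMic60 libraries, against 70.7, 63.3 and 60.04 CPM in siCTRL libraries. The groups were apart, with a log2 fold change of 2.03 ± 0.12 (SE; adjusted p = 1.33e-08). STAT2, an ISGF3 subunit, rose to 216, 209 and 271 CPM in siMic60 libraries, against 82.3, 61.8 and 59.8 CPM in siCTRL libraries. Its log2 fold change was 1.77 ± 0.15 (SE; adjusted p = 5.27e-07), with no overlap between the groups. IRF1 rose by a log2 fold change of 1.29 ± 0.13 (SE; adjusted p = 2.56e-06) and IRF9, the DNA-binding subunit of ISGF3, by 1.25 ± 0.16 (SE; adjusted p = 2.88e-05). These are mRNA levels and do not measure binding or activation. CD68 moved with these genes, at 24.99, 24.6 and 27.3 CPM in siMic60 libraries, against 8.27, 7.25 and 6.16 CPM in siCTRL libraries, while PTPRC, the general leukocyte marker, stood at 0.153 to 0.490 CPM in siMic60 libraries and 0.719 to 1.13 CPM in siCTRL libraries.

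The genes most like each member over the 6 libraries were found by the Euclidean distance of log2 CPM centred on the siCTRL mean, where a smaller distance means closer values library by library. With this centring, genes of nearly equal fold change lie close together. The distances therefore largely restate the fold changes and are not separate evidence of a link between genes. PARP9 and PARP14 were each other's nearest gene of all tested, at a distance of 0.235. HSH2D (0.247) and HLA-C (0.299) came next for PARP9, and ATP10A (0.249) and HLA-C (0.283) for PARP14, where HLA-C shares sequence with other HLA genes and its counts are uncertain. DTX3L lay nearest to PHF11 (0.118), PML (0.123), the organizer of PML nuclear bodies, and PDGFA (0.136), a growth factor, rather than to PARP9. PARP10 lay nearest to TMEM62 (0.157), RRAS2 (0.196) and TMEM229B (0.201). PARP12 lay nearest to the antisense gene AC083862.2 (0.387), PARP10 (0.436) and TMEM229B (0.447), and its nearest gene was farther than that of PARP9, DTX3L, PARP14, PARP10 or TIPARP. TIPARP lay nearest to SAMD8 (0.117), YPEL2 (0.147) and STAG2 (0.195), none of which was called.

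The other Deltex genes, relatives of DTX3L by their ligase part, moved in both directions. DTX1 had no count, and of the 3 tested 1 was called higher and 2 lower, beside 17.7% and 17.9% of all tested genes. DTX3 fell to 45.4, 49.4 and 42.1 CPM in siMic60 libraries, against 83.9, 78.8 and 68.4 CPM in siCTRL libraries (log2 fold change -0.76 ± 0.13 SE, adjusted p = 0.000339). DTX4 fell by a log2 fold change of -1.81 ± 0.34 (SE) and was below 8 CPM in every library. DTX2 had 37.1, 24.0 and 21.2 CPM in siMic60 libraries, against 15.7, 14.8 and 22.3 CPM in siCTRL libraries, which overlap. Its call (0.63 ± 0.22 SE, adjusted p = 0.0334) was lost without siMic60 library 1 (0.37, adjusted p = 0.186), siCTRL library 1 (adjusted p = 0.0858) or siCTRL library 2 (adjusted p = 0.126), and with library totals in place of TMM (adjusted p = 0.0547).

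Of 14 tested genes whose products remove or read ADP-ribose, 1 was called higher and 3 lower, with a median log2 fold change of -0.14. Over all tested genes, 17.7% were called higher and 17.9% lower. ADPRS (ARH3), which removes ADP-ribose from serine, rose to 56.9, 65.1 and 53.8 CPM in siMic60 libraries, against 43.0, 38.9 and 34.8 CPM in siCTRL libraries (log2 fold change 0.59 ± 0.13 SE, adjusted p = 0.00291). MACROD2, a macrodomain hydrolase that removes single units, fell to 1.23, 2.20 and 1.73 CPM in siMic60 libraries, against 6.71, 6.13 and 5.42 CPM in siCTRL libraries (adjusted p = 0.000518). MACROH2A1, a histone variant with a macrodomain, fell by a log2 fold change of -0.61 ± 0.13 (SE; adjusted p = 0.00195). APLF, a repair factor that binds ADP-ribose chains, fell by -0.75 ± 0.22 (SE; adjusted p = 0.0135), a call lost without siCTRL library 1 (adjusted p = 0.0653). PARG, which degrades the chains, and HPF1, which directs PARP1 and PARP2 to serine, were not called, with log2 fold changes of 0.33 ± 0.17 and 0.11 ± 0.15 (SE).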

How the data were processed

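Polyadenylated RNA from PC3 cells was made into QuantSeq 3′ mRNA libraries, 3 siMic60 and 3 siCTRL. The authors deposited raw counts per gene, all whole numbers, in 1 table. Per the submitters' processing notes, RSEM 1.2.3, DESeq2 and hg19 (GRCh37) were used, in roles that are not stated. RSEM estimates counts, which may have been rounded. Not given in the sources used here are the aligner, the annotation and any use of strand. The table held no column of other samples.

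Identifiers were matched to symbols for 52301 of 57736 rows (39501 current names, 12800 from GENCODE release 29). The test was that of edgeR 4.0.16 in R 4.3.3: TMM, a minimum of 10 counts in 3 of 6 libraries, quasi-likelihood test, Benjamini-Hochberg adjustment over all 14653 genes, threshold 0.05. Intervals are 95% and come from the standard error. The edgeR step was tested on simulated data. Ratios of single gene pairs used exact permutation tests over libraries (scipy 1.17.1). Promoter windows came from RefSeq (GRCh38.p14), and coordinates belong to that build, not to hg19.

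The members, their classes, the gene lists and the rule for named genes were chosen with earlier results of these data known. Named genes were all members, every other PARP gene, the 4 called genes with the smallest adjusted p in each other list, the 4 neighbours on each side of the chromosome 3 cluster and the 3 nearest genes of 6 members. PARG, HPF1, CYP1A1, KLK3, CD68, PTPRC and GRINA were named besides. Markers covered epithelial, prostate, leukocyte and fibroblast genes. COL1A1 fell to 45.8 to 64.9 CPM in siMic60 libraries, against 277 to 370 CPM in siCTRL libraries, and DCN had no count. Some genes of these lists are not reported here. Alternatives were DESeq2 1.42.0, limma-trend (limma 3.58.1, prior count 2), edgeR with DESeq2 size factors, edgeR with library totals and no TMM, a filter of 50 counts or none, the replicate number as a block, and each of the 6 libraries omitted once.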

Additional observations from a re-analysis of the deposited data

How the results depend on the processing

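PARP9, DTX3L, PARP14, PARP10 and PARP12 were called higher under every alternative run, with a median log2 fold change of 2.39 to 2.57, and their number stayed at 5 with each library left out. Of 129 alternative values for the 10 genes, 126 kept direction and call, 3 passed the threshold newly and 0 reversed. The number of housekeeping genes called higher was 1 with no minimum count (PARP4, 0.57, adjusted p = 0.0131) and 0 to 1 with a library left out, and the number called lower was 0 to 1. PARP8 could not be tested with a minimum of 50 counts. Of 473 values for the other named genes, 455 kept direction and call, 16 lost the call, 1 gained it and 1 reversed (PARP6, -0.19 without siCTRL replicate 2, in a range of -0.19 to 0.54 with a library left out, not called in any of these fits). The cause was not tested.

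The difference in the mean log2 ratio of PARP9 to DTX3L was 0.93 with 1 count added and 0.864 to 1.02 with a library left out, when no p under 0.2 is possible. Scaling by library totals moved the median log2 fold change of all genes to -0.055. Same-numbered libraries did not deviate together (correlations -0.10, -0.03 and 0.03), so the numbers were not read as pairs. With the replicate block, 2384 genes were called higher and 2382 lower, against 2587 and 2617 without it, and the block changed no call of the 10 genes. PARP11 lost its call under the block (adjusted p = 0.0616). Each group has 3 libraries, and 1 count is 0.115 to 0.153 CPM, so fold changes of genes near 1 CPM rest on few counts.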

Other observations

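NAD is the substrate that PARP enzymes consume, and 16 of 18 genes for its synthesis and use were tested. Of these 3 were called higher and 3 lower, near the 17.7% higher and 17.9% lower over all tested genes. Their median log2 fold change was 0.03, beside 0.0022 over all tested genes. The 4 genes named next are the called ones with the smallest adjusted p. NAMPT, the rate-limiting enzyme of NAD salvage from nicotinamide, rose to 128, 98.4 and 120 CPM in siMic60 libraries, against 60.5, 69.9 and 67.8 CPM in siCTRL libraries (log2 fold change 0.81 ± 0.13 SE, adjusted p = 0.000231 in edgeR's quasi-likelihood test). NADK, which phosphorylates NAD to NADP, rose to 84.2, 100 and 105 CPM in siMic60 libraries, against 57.4, 51.7 and 55.5 CPM in siCTRL libraries (0.82 ± 0.12 SE, adjusted p = 0.000142). NMNAT2, which joins nicotinamide mononucleotide to the adenylate group, fell to 14.1, 14.4 and 16.1 CPM in siMic60 libraries, against 35.7, 30.4 and 27.9 CPM in siCTRL libraries (adjusted p = 9.22e-05). SARM1, an NAD-cleaving enzyme, fell to 5.06, 5.997 and 3.92 CPM in siMic60 libraries, against 14.0, 12.1 and 13.1 CPM in siCTRL libraries (adjusted p = 0.000218). The groups did not overlap in any of these 4 genes, as in 47.9% of all tested genes.

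Repair genes that act with PARP1 at single-strand breaks numbered 10, of which 2 were called higher and 2 lower. These counts were near the shares over all tested genes, 17.7% higher and 17.9% lower. PCNA, the sliding clamp of DNA synthesis, rose to 113, 115 and 115 CPM in siMic60 libraries, against 48.2, 76.3 and 80.9 CPM in siCTRL libraries (log2 fold change 0.74 ± 0.16 SE, adjusted p = 0.00237), and FEN1, the flap endonuclease, rose by 0.82 ± 0.20 (SE; adjusted p = 0.00421). POLB, the repair polymerase, fell to 18.7, 22.3 and 20.4 CPM in siMic60 libraries, against 30.2, 30.02 and 28.5 CPM in siCTRL libraries (adjusted p = 0.00889). APTX, which clears abortive ligation ends, fell by a log2 fold change of -0.47 ± 0.14 (SE; adjusted p = 0.0184), a call lost without siMic60 library 3 (adjusted p = 0.0689) or siCTRL library 1 (adjusted p = 0.0540).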
